A study of Mus musculus with 4 samples.

Results

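The genes described here encode peroxins, peroxisomal membrane proteins and peroxisomal matrix enzymes that lie outside fatty acid β-oxidation. A list of 36 gene symbols defined the set, and a probe set was taken as a member when the platform annotation gave it 1 of these symbols and no other gene. Of the 36 genes, 32 had such a probe set, with 51 probe sets in all among the 22690 of the array. Pex10, Pex11g, Prdx5 and Agps had none and are not reported. Of the 32 genes, 30 were measured, which means that at least 1 of the 4 arrays read above a floor of 16 units in the brightest probe set of the gene. Far1 and Dao were below the floor on all 4 arrays, and Ddo was above it on 1 array only. In the whole series 6947 of 12393 genes were measured.

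Liver RNA of male mice aged 3 to 5 months was examined in 4 groups, namely fasted PPARα-null, fasted wild-type, fed PPARα-null and fed wild-type. PPARα-null mice belonged to the 129S4/SvJae substrain and lacked a functional Ppara gene in the whole animal, whereas the wild-type mice were 129S1/SvImJ, so genotype and substrain cannot be told apart. Fasted mice went without food for 24 hours, and fed mice were killed when the dark period ended. Each group comprised 5 mice, whose liver RNA was combined and measured on a single Affymetrix MOE430A array. A difference therefore has no replicate check, the number of arrays limits the precision, and no p-value is given. Values are intensities in arbitrary units on a linear scale. A difference of 1.5-fold or more, or 0.585 on the log2 scale, was counted. A gene is described by its brightest probe set unless another is named.

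Peroxisomes are organelles bounded by a single membrane that import folded proteins from the cytosol. Peroxins build the membrane, recognize and import matrix proteins, recycle the import receptors, and elongate and divide the organelle. In liver, peroxisomes shorten very long and branched fatty acids, and oxidize urate and glycolate with release of hydrogen peroxide. They also detoxify glyoxylate and carry out the early steps of ether lipid synthesis. PPARα owes its name to the increase in peroxisome number that its ligands cause in rodent liver.

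The labels were checked first. Ppara read 16.3 units in fasted PPARα-null and 755 units in fasted wild-type liver, and 104 units in fed PPARα-null and 583 units in fed wild-type liver. It was thus lower in both null pools, in the direction of the labels. All 7 measured hepatocyte markers, among them Alb and Apoa1, were bright on every array, with summed levels between 72886 and 88516 units. The median intensity of the 4 arrays lay between 14.4 and 14.6 units.

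In fasted liver, the peroxisomal genes were lower in PPARα-null than in wild-type mice, or about equal, and no measured member was 1.5-fold higher. Of the 30 measured genes, 13 (43.3%) were at least 1.5-fold lower, against 13.6% of all measured genes. The count of higher members was 0, against 8.58% of all measured genes. The median log2 difference was -0.53 for the 30 genes and -0.01 for all 6947. The deficit included the elongation factor gene Pex11a and the membrane protein gene Pxmp4, the protease gene Lonp2 and the receptor-recycling gene Pex26, whereas Phyh, Uox and Agxt did not reach the threshold. Between the fed pools 1 of 30 members (3.33%) was lower and 0 were higher, against 2.12% and 2.38% of all measured genes, so the share of members was near that of all genes.

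**Figure D1:**
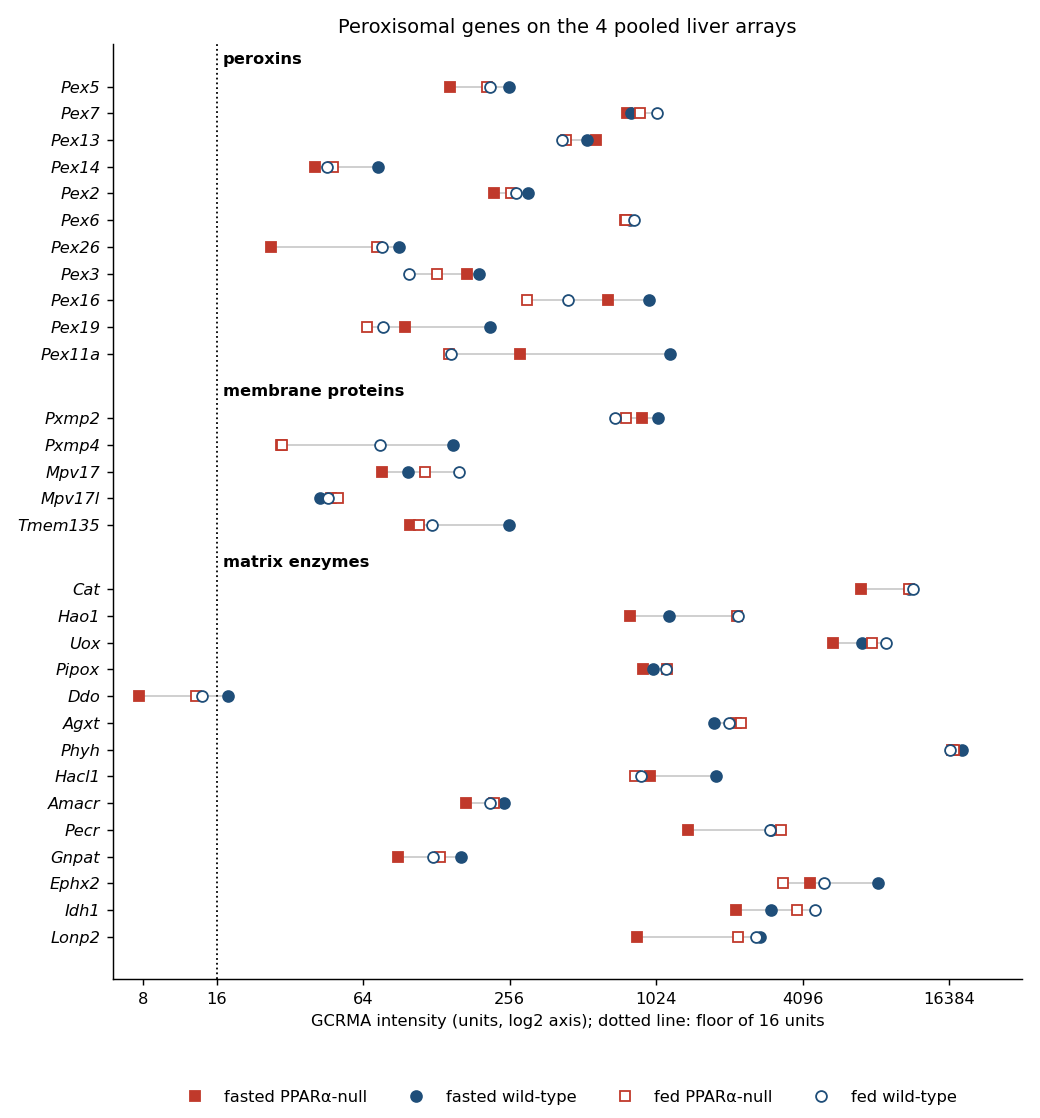
GCRMA intensity (units, log2 axis) of the 30 measured genes, grouped as peroxins, membrane proteins and matrix enzymes, with 1 point per pooled array (squares for PPARα-null, circles for wild-type, filled for fasted, open for fed). The fasted wild-type point was the highest for 18 of the 30 genes and the fasted PPARα-null point the lowest for 19, as for Pex11a at 1168 units and Lonp2 at 853 units. Ddo is in both counts, with values under the floor.

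Across the 4 arrays, 18 of the 30 genes had their highest value in fasted wild-type liver, whereas 24.3% of all measured genes did. For 19 genes the lowest value was in fasted PPARα-null liver, against 36.7% of all measured genes. These ranks used values as deposited, also those under the floor. Ddo is in both counts, although it was above the floor in fasted wild-type liver only. Agxt, Mpv17l and Pex13 were the members with a positive difference between the fasted genotypes, and Pex13 was the 1 member whose highest value was in fasted null liver. Restricting the set to the 25 members with at least 64 units on all 4 arrays left 10 lower and 0 higher, with a median of -0.51. The share of all genes that bright was not computed. Of the 3808 genes with 64 units on at least 1 array, 19.3% were lower and 11.9% higher, against 13.6% and 8.58% of all measured genes. Of the 28 members under that filter, 13 were lower and 0 higher. A gene can pass that filter on the array where it is high, as Pex14 did in fasted wild-type liver only. This count is therefore no separate check of brightness.

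Pex11a, whose product elongates peroxisomal membranes before division, showed the largest fasting difference of the set. It read 283 units in fasted PPARα-null and 1168 units in fasted wild-type liver, and 144 units in fed PPARα-null and 146 units in fed wild-type liver. The fed pools of both genotypes were thus nearly equal, and the fasted pools stood apart. Fasting was accompanied by a 1.97-fold higher value in null and a 7.98-fold higher value in wild-type liver, so that the fasted null pool was 4.13-fold lower than the fasted wild-type pool. A second probe set read 268, 796, 117 and 175 units in the same order of groups, with a log2 difference of -1.57 between the fasted genotypes. In that probe set the fed null pool was also lower, with a log2 difference of -0.58, just under the threshold.

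The 3 peroxins that assemble the membrane were at least 1.5-fold higher in fasted than in fed wild-type liver in their brightest probe sets, against 8.20% of all measured genes. Pex19, the cytosolic chaperone of newly made peroxisomal membrane proteins, read 94.7 units in fasted PPARα-null and 213 units in fasted wild-type liver, against 66.1 and 76.9 units in the fed null and fed wild-type pools. It was 2.25-fold lower in the fasted null pool, and its second probe set differed similarly, with a log2 difference of -1.05. Pex16, which helps to place membrane proteins, read 648 and 956 units in the fasted null and fasted wild-type pools, and 301 and 446 units in the fed null and fed wild-type pools. Its fasting difference was the same in both genotypes, at 2.15-fold in null and 2.14-fold in wild-type liver, and in either feeding state the null pool was lower by slightly less than 1.5-fold. The other probe set of Pex16 stayed between 18.6 and 19.5 units on all arrays, close to the floor, and showed none of these differences. With the mean of both probe sets the fasting difference of Pex16 in wild-type liver was 0.57, under the threshold.

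Pex3, the membrane anchor to which Pex19 delivers its cargo, depended on the probe set. The brighter one read 171 units in fasted null and 191 units in fasted wild-type liver, with 129 units in fed null and 98.8 units in fed wild-type liver. The dimmer one read 47.8 and 112 units in the fasted null and fasted wild-type pools, and 44.4 and 48.7 units in the fed ones. Both were higher in fasted than in fed wild-type liver, by 0.95 and 1.20 on the log2 scale. Between the fasted genotypes, however, they differed by -0.16 and -1.22, so whether Pex3 was lower in the fasted null pool is not settled by these arrays.

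Peroxins of matrix protein import varied less. Pex5, the receptor for proteins with the common carboxy-terminal targeting signal, read 146 units in fasted PPARα-null and 255 units in fasted wild-type liver, and 207 and 212 units in the fed null and fed wild-type pools. It was 1.75-fold lower in the fasted null pool, and its second probe set had a log2 difference of -0.67. Pex14, a subunit of the docking complex that receives loaded Pex5, read 40.7 and 73.4 units in the fasted null and fasted wild-type pools and 48.1 and 45.6 units in the fed ones, a 1.80-fold deficit at low intensity that was -0.20 on the log2 scale with a floor at 64 units. By contrast Pex7, the receptor for the amino-terminal signal, ranged from 774 to 1028 units over the 4 arrays, and Pex13, the docking partner of Pex14, ranged from 421 to 577 units. Neither passed 1.5-fold in any comparison.

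Export of the import receptors involves a ubiquitin ligase and an ATPase complex. Pex26, which anchors that ATPase complex to the membrane, read 26.8 units in fasted PPARα-null and 90.1 units in fasted wild-type liver, and 73.2 and 76.3 units in the fed null and fed wild-type pools. The fasted null pool was the outlying one, 3.37-fold below fasted wild-type and 2.74-fold below fed null liver, but with a single probe set at low intensity. With a floor at 64 units the fasted genotype difference was -0.49, under the threshold. Pex6, an ATPase of the complex, ranged from 761 to 833 units in its brightest probe set, whose suffix marks possible matches to other transcripts. Its other measured probe sets had log2 differences of -0.46 and -0.29 between the fasted genotypes. Pex2, a subunit of the ubiquitin ligase, read 221 and 305 units in fasted null and fasted wild-type liver, a log2 difference of -0.46.

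Of the 5 membrane proteins outside the peroxin family, Pxmp4 and Tmem135 were lower in the fasted null pool. Pxmp4 read 29.3 units in fasted PPARα-null and 150 units in fasted wild-type liver, and 29.9 units in fed PPARα-null and 75.4 units in fed wild-type liver. Its null values were equal in both feeding states, and the fasted wild-type value was 1.00 above the fed one on the log2 scale. Pxmp4 was 5.13-fold lower in the fasted and 2.52-fold lower in the fed null pool, and was the 1 member past the threshold in the fed comparison. With a floor at 64 units its fed difference was -0.24.

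Tmem135 encodes a multi-pass protein found in peroxisomal membranes. It read 99.6 units in fasted PPARα-null and 256 units in fasted wild-type liver, against 109 and 122 units in the fed null and fed wild-type pools. Only the fasted wild-type pool stood apart, and the fasted null pool was 2.57-fold lower than it. A dim second probe set between 13.3 and 26.1 units had a log2 difference of -0.70. Pxmp2, a channel protein, read 898 and 1042 units in the fasted null and fasted wild-type pools and 771 and 694 units in the fed ones. Its log2 difference of 0.59 with fasting in wild-type liver lay at the threshold. Its relative Mpv17, known mainly from the inner mitochondrial membrane, read 76.7 and 97.6 units in the fasted null and fasted wild-type pools and 115 and 158 units in the fed ones, and was 1.62-fold lower in fasted than in fed wild-type liver. Mpv17l stayed between 42.4 and 50.3 units.

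**Figure D2:**
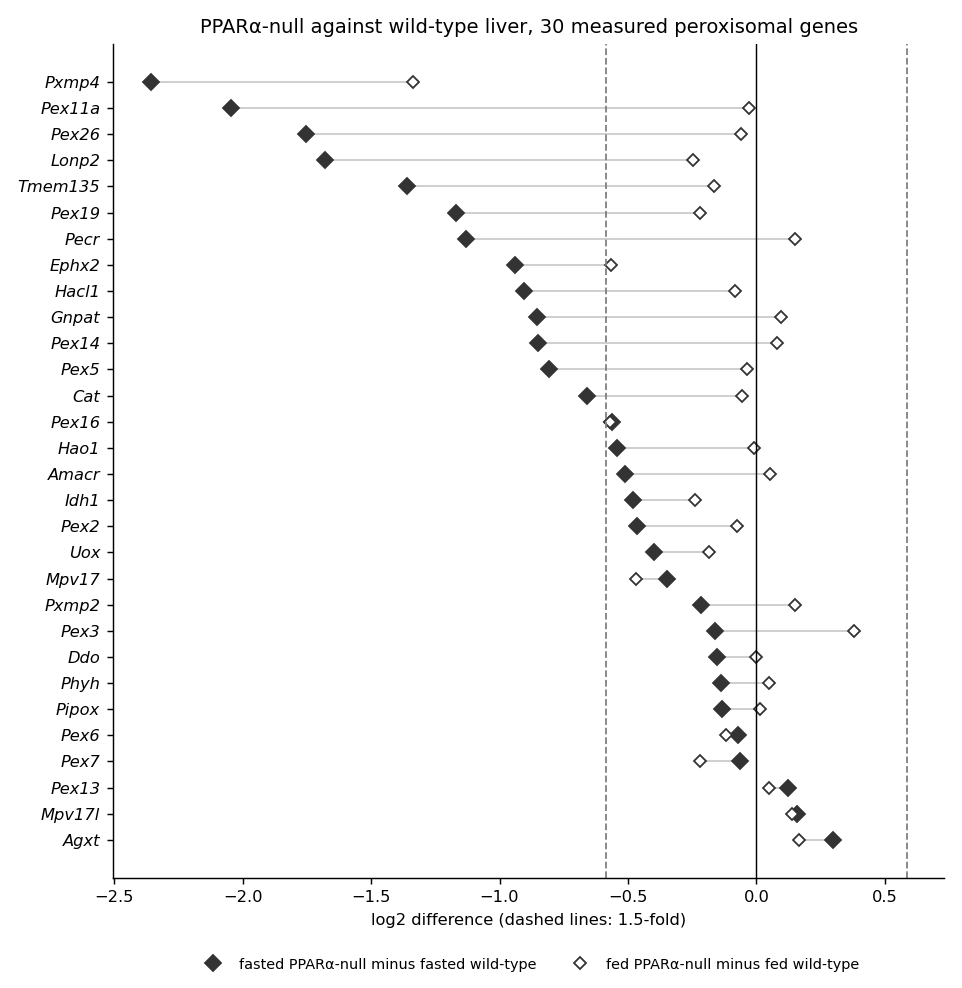
Log2 difference of PPARα-null minus wild-type liver for the 30 measured genes, in the fasted (filled) and fed (open) state, sorted by the fasted difference. The fasted differences ran from -2.36 for Pxmp4 to 0.30 for Agxt, whereas the fed ones lay between -0.57 and 0.38 apart from Pxmp4 at -1.34.

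Among the matrix enzymes, 6 of 14 measured genes were lower in the fasted null pool and 0 were higher, with a median log2 difference of -0.53. The 11 measured peroxins had 5 lower and 0 higher with a median of -0.56. Among all measured genes 13.6% were lower and 8.58% higher, and the classes were not tested against each other. Lonp2, the ATP-dependent protease of the peroxisomal matrix, read 853 units in fasted PPARα-null and 2735 units in fasted wild-type liver, and 2222 and 2635 units in the fed null and fed wild-type pools. Here the fasted null pool alone was low, 3.20-fold below fasted wild-type and 2.60-fold below fed null liver. A second probe set of Lonp2 lay between 9.59 and 17.2 units, at or near the floor, where a difference is compressed, and its log2 difference was -0.10.

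Pecr, a reductase of trans-2-enoyl-CoA esters, had the same shape. It read 1388 units in fasted PPARα-null and 3037 units in fasted wild-type liver, and 3328 and 2994 units in the fed null and fed wild-type pools. The fasted null value was 2.19-fold below fasted wild-type liver, and the other 3 values lay close together. Its dimmer probe set, at 19.6 and 34.0 units in the fasted null and fasted wild-type pools, had a log2 difference of -0.79.

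Hacl1, the lyase that cleaves 2-hydroxy acyl-CoA esters in α-oxidation, followed the other shape. It read 968 units in fasted PPARα-null and 1812 units in fasted wild-type liver, and 839 and 889 units in the fed null and fed wild-type pools. The fasted wild-type pool alone was high, 2.04-fold above the fed one. Phyh, which carries out the preceding hydroxylation of phytanoyl-CoA, ranged only from 16488 to 18460 units. Amacr, the racemase that makes branched acyl-CoA esters accessible to β-oxidation, read 170 and 242 units in the fasted null and fasted wild-type pools, a log2 difference of -0.51 that did not reach the threshold.

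Ephx2, the soluble epoxide hydrolase, read 4374 units in fasted PPARα-null and 8390 units in fasted wild-type liver, and 3402 and 5034 units in the fed null and fed wild-type pools. The null pool was 1.92-fold lower in the fasted state and 1.48-fold lower in the fed state. Gnpat, the acyltransferase of the opening step of ether lipid synthesis, read 89.1 and 161 units in the fasted null and fasted wild-type pools, and 133 and 124 units in the fed ones. It was 1.81-fold lower in the fasted null pool. Of the remaining ether lipid genes of the list, Far1 was below the floor in all 5 of its probe sets.

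Cat, which encodes catalase, the enzyme that breaks down the hydrogen peroxide made by peroxisomal oxidases, read 7085 units in fasted PPARα-null and 11193 units in fasted wild-type liver. The fed null and fed wild-type pools read 11234 and 11686 units, so that the fasted null pool was the single low one, by 1.58-fold. A second probe set read 4593 units in fasted null and 6794 units in fasted wild-type liver, a log2 difference of -0.56 just short of the threshold. When each array was centred on its bright probe sets, the brighter one was at -0.51, also short of it.

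Of the 4 measured oxidases, Hao1 passed the threshold with fasting in both genotypes, and none passed it between the genotypes. Hao1, the glycolate oxidase of glyoxylate formation, read 796 units in fasted PPARα-null and 1159 units in fasted wild-type liver, and 2205 and 2222 units in the fed null and fed wild-type pools. Both fasted pools were thus below both fed pools, by 2.77-fold in null and 1.92-fold in wild-type liver. Uox, the urate oxidase, read 5433 and 7155 units in the fasted null and fasted wild-type pools and 7907 and 8980 units in the fed ones, with log2 differences from -0.54 to -0.18. Pipox, which oxidizes sarcosine and pipecolate, ranged from 907 to 1132 units. Idh1, an NADP-dependent isocitrate dehydrogenase shared between cytosol and peroxisome, read 2181 and 3044 units in the fasted null and fasted wild-type pools and 3885 and 4587 units in the fed ones. It was lower with fasting in both genotypes, by 1.78-fold in null and 1.51-fold in wild-type liver, and its second probe set passed the threshold in both as well. Agxt, the aminotransferase that converts glyoxylate to glycine, ranged from 1773 to 2283 units and was highest in the null pools.

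In fasted against fed wild-type liver, 10 of 30 members were at least 1.5-fold higher and 3 lower, against 8.20% and 8.29% of all measured genes. In fasted against fed PPARα-null liver, 2 members were higher and 6 lower, against 12.4% and 18.0% of all measured genes. The median log2 difference of the members was -0.16 with fasting in null and 0.17 with fasting in wild-type liver, and that of all measured genes was -0.01 and 0.00.

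Of the 13 members that were lower in fasted PPARα-null liver, 7 were higher in fasted than in fed wild-type liver, namely Pex11a, Pex19, Pex14, Pxmp4, Tmem135, Hacl1 and Ephx2. Their fasting differences ran from 0.69 to 3.00 in wild-type and from -0.24 to 0.98 in null liver. Another 4, namely Lonp2, Pecr, Pex26 and Cat, hardly differed with fasting in wild-type liver, where they lay between -0.06 and 0.24, but were lower with fasting in null liver with log2 differences between -1.45 and -0.67. Pex5 and Gnpat passed the threshold with fasting in neither genotype, since the null value was lower and the wild-type value higher by less than 1.5-fold each. The fasted arrays enter the genotype comparison and the fasting comparisons alike, which favours such patterns. The same split of all genes lower in fasted null liver was not made, so these counts have no share beside them. The response of the null pool minus that of the wild-type pool was -0.58 or below for 12 members and at or above 0.58 for 0, against 14.9% and 9.14% of all measured genes.

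**Figure D3:**
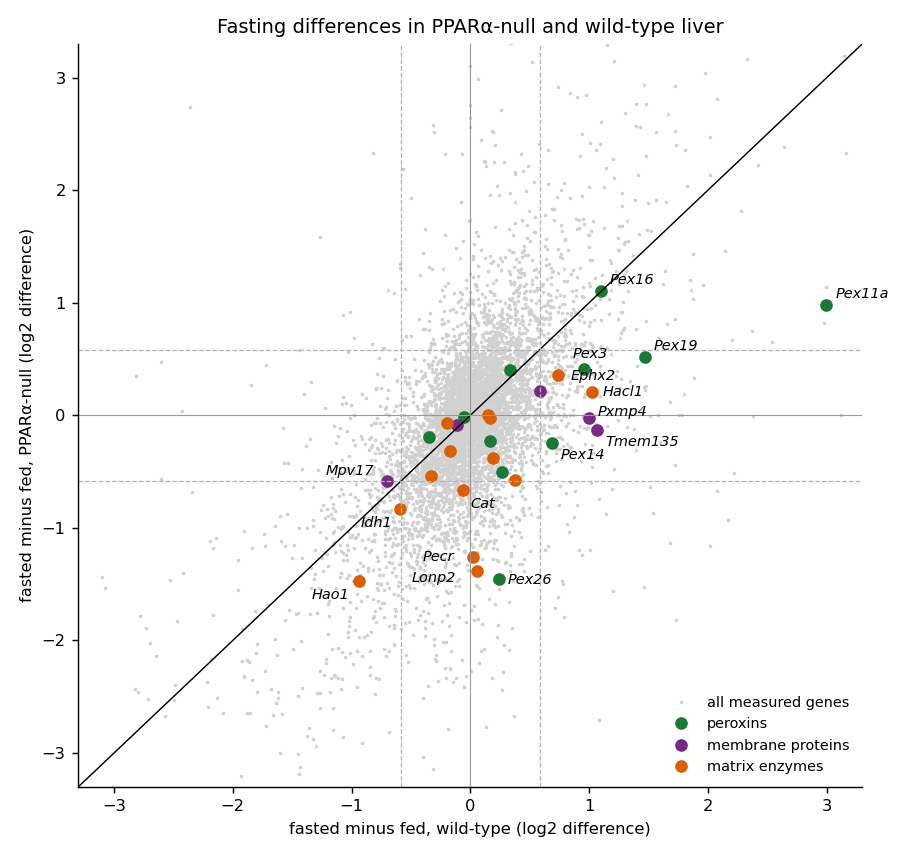
Log2 difference of fasted minus fed liver in PPARα-null (vertical axis) against wild-type mice (horizontal axis) for the 30 measured genes, coloured by class, over all measured genes in grey (69 genes outside the plotted range). Dashed lines mark 1.5-fold and the diagonal marks equal responses, with Pex16 on it, Pex11a at 3.00 and 0.98 far below it, and Lonp2, Pecr and Pex26 below it near 0 on the horizontal axis.

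Members under 1.5-fold in all 4 comparisons numbered 11. The share of all measured genes under 1.5-fold in all 4 was not computed, so the count has none beside it. They were Pex2, Pex6, Pex7, Pex13, Mpv17l, Uox, Pipox, Ddo, Agxt, Phyh and Amacr, with fasted genotype differences from -0.51 to 0.30 on the log2 scale. Ddo, the D-aspartate oxidase, was below the floor in the other pools and at 17.8 units in fasted wild-type liver, so its value carries no comparison.

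Where a member had more than 1 measured probe set, these were compared with each other. Of 12 such members, 9 gave the same call in all their probe sets for the fasted genotypes, and Cat, Lonp2 and Pex3 did not. Some of this agreement was set by the floor. The dim probe set of Pex13 read 8.33 units in fasted null and 16.7 units in fasted wild-type liver, and the floor held its difference at -0.06. For all genes of the array with several measured probe sets, the SD between probe sets of the same gene was 0.374 on the log2 scale in this comparison. This SD holds technical scatter on the same arrays and no variation between mice.

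**Figure D4:**
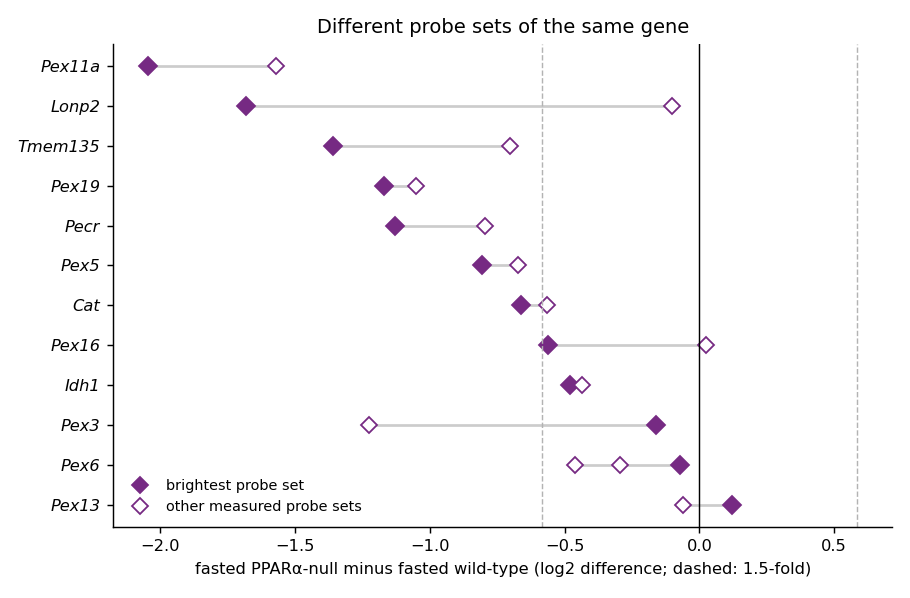
Log2 difference of fasted PPARα-null minus fasted wild-type liver for each measured probe set of the 12 genes that have several, with the brightest probe set filled. Pex11a and Pex19 lay beyond 1.5-fold in both probe sets, whereas Pex3 lay at -0.16 and -1.22 and Lonp2 at -1.68 and -0.10.

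Peroxisomal genes outside the set were examined in lists of related function. Of 16 measured genes of peroxisomal β-oxidation, 13 were lower in the fasted null pool and 0 higher, with a median log2 difference of -1.64, below the -0.53 of the genes described here. Further matrix proteins had 5 of 12 lower and 0 higher with a median of -0.49. Transporters had 1 of 3 lower, and none of the 3 measured fission factors passed the threshold in either direction. The largest of these differences belonged to the β-oxidation genes Decr2 (-4.07), Ehhadh (-2.77) and Ech1 (-2.58) and to Hsdl2 (-2.44), a dehydrogenase-like matrix protein. With fasting, 13 of 16 β-oxidation genes were higher in wild-type liver, whereas 10 of 30 members were. These counts describe 4 arrays, and the difference between the lists was not tested.

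**Figure D5:**
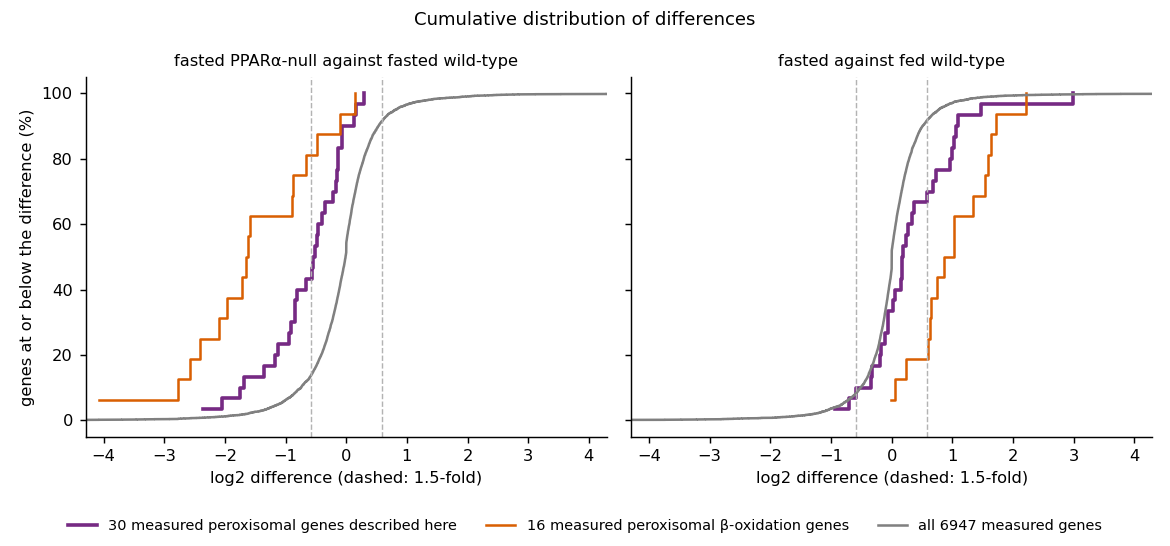
Cumulative share of genes (percent) at or below a log2 difference, for fasted PPARα-null against fasted wild-type liver (left) and fasted against fed wild-type liver (right). The 30 genes described here have a median of -0.53 on the left and 0.17 on the right. These medians lie between those of all 6947 measured genes and those of the 16 β-oxidation genes (-1.64 and 0.95). On the right the curves cross.

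Other cell types were followed through marker lists, because in whole liver fewer cells of a type and less RNA per cell cannot be told apart. Kupffer cell and macrophage markers were higher in the fasted null pool for 8 of 11 measured genes and lower for 0, with summed levels of 1202 units in fasted null, 580 units in fasted wild-type, 1015 units in fed null and 981 units in fed wild-type liver. Cd68 was below the floor on all arrays. Stellate cell and fibroblast markers were higher for 4 of 7 and lower for 0, with sums of 2881, 1635, 2134 and 1659 units in the same order, while Des, Lrat and Col1a1 were below the floor. Hepatocyte markers had 1 of 7 higher and 0 lower. Exocrine pancreas markers summed to 103 and 104 units in the fasted null and fasted wild-type pools and to 869 and 620 units in the fed ones, mostly Cela1. Of the bile duct markers Krt7, Krt19, Epcam and Cldn4 were below the floor, and Spp1 had no probe set of its own. Sox9 read 33.9 units in fasted null and 20.8 units in fasted wild-type liver, 1.63-fold higher in the null pool. Endothelial markers had 2 of 7 lower and 2 higher, and Pecam1 was below the floor. Their sums were 796, 504, 552 and 585 units in fasted null, fasted wild-type, fed null and fed wild-type liver. In that order Stab2 read 637, 314, 203 and 250 units and made most of the fasted sums. Clec4g went the other way, with 34.9, 70.8, 236 and 233 units. Erythroid markers summed to 435, 209, 763 and 489 units in that order, mostly Alas2, and Hba-a1 was below the floor. Between the fed pools Alas2 (0.69) and Slc4a1 (-0.59) differed in opposite directions on the log2 scale. Of the adipocyte markers Adipoq and Lep were below the floor, while Fabp4 read 77.8 units in fasted null and 39.7 units in fasted wild-type liver, 1.96-fold higher in the null pool. The part of these cell types in the differences of the peroxisomal genes was not tested.

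Upstream sequence was read for the members with a window in the RefSeq promoter table of build GRCm38.p6. PPARα binds with RXR to direct repeats of the hexamer AGGTCA spaced by 1 base, and this repeat (AGGTCA, any base, AGGTCA) was searched on both strands of the 250 bases before each start, with up to 2 mismatches among its 12 fixed bases. Of 30 members with a window, 1 (3.33%) held a match, against 3.72% of 27025 genes. The share of members was thus about that of all genes. The match lay in the Cat window (chr2:103485154-103485403, minus strand), 204 to 192 bases before the start, and read AGGTCAGAGAACA. The Pex11a window (chr7:79743132-79743381, minus strand) is given beside it because Pex11a showed the largest fasting difference, and it held no match. Capitals mark the match, and these letters say nothing about sites farther away.
Cat: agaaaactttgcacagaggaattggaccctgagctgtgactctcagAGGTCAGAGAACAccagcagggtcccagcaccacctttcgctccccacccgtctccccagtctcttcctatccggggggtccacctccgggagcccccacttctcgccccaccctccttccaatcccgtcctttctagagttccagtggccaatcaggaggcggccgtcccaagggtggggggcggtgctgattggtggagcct
Pex11a: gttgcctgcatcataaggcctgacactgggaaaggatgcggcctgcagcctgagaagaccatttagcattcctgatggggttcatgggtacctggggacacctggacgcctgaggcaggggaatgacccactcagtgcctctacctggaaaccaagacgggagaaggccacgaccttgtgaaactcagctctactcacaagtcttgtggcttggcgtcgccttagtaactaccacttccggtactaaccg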

How the data were processed

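In each of 4 groups, RNA from the livers of 5 male mice was combined for 1 Affymetrix MOE430A array. That number follows the design text, and another source allows pools of 4. The intensities the authors deposited are on a linear scale. The submitters' processing notes name GCRMA 2.20, which corrects background by probe sequence, normalizes quantiles and summarizes probe sets. The sources used here do not say which arrays were normalized jointly, and normalization could not be redone, so shifts shared by most genes may have been removed.

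Values were converted to log2 after setting those under 16 units to that floor. The probe set with the highest mean represented a gene, and a gene was measured if 1 array exceeded the floor. Probe sets naming several genes (691) and controls (64) were left out. Differences of 1.5-fold or more were counted without a test, since each group holds 1 array. Every member is accounted for, and members past the threshold are named with all 4 values. Other peroxisomal genes were named by the 4 largest fasted genotype differences. The members and lists were chosen with earlier results of these data known. Alternatives changed the threshold, floor, scaling, filter and probe set choice. The procedure was tested on simulated data. Calculations used statsmodels 0.14.6, pandas 2.3.3 and numpy 2.4.6 under Python 3.11.15, and figures matplotlib 3.10.9.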

Additional observations from a re-analysis of the deposited data

Results flagged for a closer look

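For 8 members the fasted minus fed difference had a different sign in the PPARα-null and the wild-type pools, and the responses differed by 1.5-fold or more. The response of the null pool minus that of the wild-type pool, on the log2 scale, was -1.69 for Pex26, -1.43 for Lonp2, -1.28 for Pecr, -1.20 for Tmem135, -1.02 for Pxmp4, -0.95 for Gnpat, -0.93 for Pex14 and -0.77 for Pex5. With 1 array per group the difference was not tested. The share of all measured genes that met this rule was not computed. Whatever the signs, 14.9% of all measured genes had a null response lower than the wild-type one by 1.5-fold or more, and 9.14% a higher one. The sign itself is weak where a response was small, as with fasting in wild-type liver for Pecr (0.02) and Lonp2 (0.05) and in null liver for Pxmp4 (-0.03) and Tmem135 (-0.13). The values of Pex26 and Pex14 were low, and a floor at 64 units moved their differences to -0.44 and -0.20.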

How the results depend on the processing

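No paired analysis was possible because each group holds 1 pooled array. With 1 array per group no replicate could be left out either. Each array reached 64 units in 23.1% to 23.8% of probe sets, which limits dim members such as Pex14, Pex26 and Pxmp4. Of 1160 values of single members under the alternatives, 1132 moved by less than the SD between probe sets of a gene, 27 moved by more and 1 value past the threshold changed sign. Values near 0 that changed sign within that SD are among the 1132. The value past the threshold was that of Pex16 with fasting in null liver, at -0.009 without suffixed probe sets, where a probe set near the floor replaced the brighter one. Many of the 1132 values could not move. A filter for 64 units on at least 1 array changed no value, and removing the floor changed only members with values under it. Averaging left members with 1 probe set as they were, so the 1132 do not measure stability. With a 2-fold threshold, 7 members were lower in fasted null liver, 0 lower and 5 higher in fasted wild-type liver, and 1 higher in fasted against fed null liver. The shares of all measured genes at that threshold were 6.22%, 3.57%, 2.91% and 5.41% in the same order. With a floor at 64 units, 0 members were lower in fed null liver, against 2.42% of all genes measured with that floor. Centring each array on its bright probe sets raised the median of all measured genes to 0.10 between the fasted genotypes, where it had been -0.01. The members' median there was -0.36 with centring and -0.45 with quantile normalization. With centring it was -0.004 for fasting in null liver and -0.23 for the difference of responses. Of 31 members measured with centring, 12 were lower and 0 higher between the fasted genotypes, against 10.1% and 12.7% of all measured genes. Cat was not among the 12 (-0.51). All genes split into 948 lower and 596 higher as deposited and into 716 lower and 896 higher with centring. The median difference of responses, -0.46 as deposited, was -0.54 without a floor, -0.55 without suffixed probe sets and -0.39 with each probe set counted on its own. Without suffixed probe sets the fed genotype median was -0.005. Of 26 members then measured, 1 was higher with fasting in null liver, against 12.7% of all genes. With each probe set counted on its own, 4 of 43 member probe sets were higher there, against 12.1% of all. The median of these 43 was -0.076. The cause of these shifts was not tested. Without suffixed probe sets Ephx2, Idh1, Pex2 and Pex3 could not be measured. Averaging probe sets put Pex3 past the threshold between the fasted genotypes (-0.69).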
